A study of Mus musculus with 12 samples.

Results

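Integrins, the other receptors by which cells hold the extracellular matrix, and the proteins that tie integrins to the actin cytoskeleton were measured as mRNA in murine BrafV600E melanoma cells. The set held the genes whose names begin with Itga or Itgb followed by a subunit number or letter, together with the 4 syndecans, *Ddr1*, *Ddr2*, *Dag1*, *Cd44*, *Layn*, *Ilk*, *Ptk2*, *Pxn*, *Tln1*, *Tln2*, and *Vcl*. These were 46 of 30705 gene names. Of the 46, 27 were integrin subunits by name, 4 carried an integrin-like name without being a subunit (*Itgb1bp1*, *Itgb1bp2*, *Itgb3bp*, and *Itgbl1*), 9 were other matrix receptors, and 6 were linkers or kinases of the adhesion complex. A mean of at least 1 RPKM (reads scaled by the length of the transcript in kilobases and by the mapped reads of the sample) over the 12 samples was reached by 29 members, and these were tested.

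The study asked how COX-1, COX-2, and mPGES-1 act in melanoma cells, and knocked out their genes with CRISPR/Cas9. All 3 are enzymes on the pathway to prostaglandin E2. COX-2 serves several prostaglandins, and mPGES-1 is a prostaglandin E2 synthase downstream of it. RNA was sequenced from 3 samples of scramble control cells and from 3 of each knockout line, *ptgs1*-KO for COX-1, *ptgs2*-KO for COX-2, and *ptges*-KO for mPGES-1. All 4 lines came from a C57BL/6 mouse line that carries Braf+/LSL-V600E, Tyr::CreERT2+/o, and p16INK4a-/-, so the controls share these alleles with the knockouts. The CreERT2 recombinase is driven by the tyrosinase promoter, which is active in melanocytes, and the cells were cultured as a line in D-MEM with fetal bovine serum. Knockout cells were selected with puromycin and subcloned by limiting dilution. The study describes the 3 samples of a line in 1 place as subclones and in another as independent samples, so the p-values below measure the spread between these samples, and an effect of the knockout cannot be told apart from a difference between subclones.

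Integrins are pairs of an alpha and a beta chain, and the pair decides whether the receptor binds collagen, laminin, or proteins with the RGD motif such as fibronectin and vitronectin. Syndecans bind matrix through heparan sulfate chains, the DDR receptors are collagen-activated tyrosine kinases, dystroglycan binds laminin, and CD44 and layilin bind hyaluronan. On the inside of the cell, talin binds and activates the beta chain, vinculin, paxillin, and integrin-linked kinase build the complex up, and focal adhesion kinase, the product of *Ptk2*, signals from it.

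Promoters are shown for the members with the largest change in 1 of the knockouts for which RefSeq gives an entry whose start was also found in GENCODE transcripts. *Layn* and *Sdc3* were both lower in *ptgs2*-KO and *ptges*-KO cells. In *ptgs1*-KO cells they parted, with *Layn* at 1.87% and *Sdc3* at 110% of the scramble mean. *Itga4* and *Itgb7* code for chains of the same receptor. The sequences are the 250 bases before the RefSeq start on GRCm38.p6, 5′ to 3′ on the strand of the gene, and capitals mark matches to the motifs named after them. They lie at chr9:51077095-51077344 on the minus strand for *Layn*, chr4:130792287-130792536 on the plus strand for *Sdc3*, chr2:79255176-79255425 on the plus strand for *Itga4*, and chr15:102231936-102232185 on the minus strand for *Itgb7*.
Layn: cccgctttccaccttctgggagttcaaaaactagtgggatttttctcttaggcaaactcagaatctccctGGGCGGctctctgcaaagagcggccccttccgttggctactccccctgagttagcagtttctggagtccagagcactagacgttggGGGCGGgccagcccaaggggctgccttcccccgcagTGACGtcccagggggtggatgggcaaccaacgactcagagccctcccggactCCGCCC
Sdc3: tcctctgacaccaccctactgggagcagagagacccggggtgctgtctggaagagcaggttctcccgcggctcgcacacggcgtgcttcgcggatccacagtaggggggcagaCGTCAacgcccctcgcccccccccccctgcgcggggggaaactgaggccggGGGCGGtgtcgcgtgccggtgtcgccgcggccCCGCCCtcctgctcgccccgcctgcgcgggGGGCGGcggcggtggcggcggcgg
Itga4: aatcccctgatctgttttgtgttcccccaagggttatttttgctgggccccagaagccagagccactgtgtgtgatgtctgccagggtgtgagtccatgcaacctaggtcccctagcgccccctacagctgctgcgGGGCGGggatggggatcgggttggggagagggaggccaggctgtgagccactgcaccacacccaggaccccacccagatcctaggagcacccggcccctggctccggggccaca
Itgb7: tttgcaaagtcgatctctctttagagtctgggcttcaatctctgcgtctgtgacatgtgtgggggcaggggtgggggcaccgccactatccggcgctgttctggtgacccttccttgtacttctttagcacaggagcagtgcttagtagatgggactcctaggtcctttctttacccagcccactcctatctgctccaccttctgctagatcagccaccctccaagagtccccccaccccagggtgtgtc
The motifs searched on both strands were the cAMP response element TGACGTCA, its 5-base core TGACG, which lies inside it, the AP-1 site TGANTCA, the TEAD site GGAATG, and the GC box GGGCGG. None of the 4 windows held the whole cAMP response element, the AP-1 site, or the TEAD site, which were present in 1.55%, 6.75%, and 12.6% of 32851 RefSeq promoters of the same length. The 5-base core was present in 17.8% of all promoters and was found in *Layn* from 58 to 54 bases before the start and in *Sdc3* from 137 to 133. GC boxes, present in 32.7% of all promoters, numbered 3 in *Layn*, 3 in *Sdc3*, and 1 in *Itga4*. The *Itgb7* window held no match to any of the 5. A promoter entry was at hand for 33 of the 46 members, and *Itga7*, *Itga6*, *Sdc2*, and *Ptk2* had none.

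Summed values were close to equal between samples, from 878504 to 903881 RPKM, and the depth estimated from the smallest step between low values was 13.3 to 17.0 M reads per sample. The make-up of 1 sample stood apart. In *ptgs1*-KO replicate 3, which had the highest sum, the most abundant gene was at 74435 RPKM, against 25412 to 37726 RPKM in the other samples. The targeted mRNAs were lower in their own lines, at 10.6% of the scramble mean for *Ptgs1*, 10.5% for *Ptgs2*, and 47.9% for *Ptges*. In *ptgs1*-KO cells the other targets were lower too, *Ptges* at 70.2% (limma adjusted p = 0.0011) and *Ptgs2* at 78.5% (0.0386) of scramble. Of 7 markers of the melanocyte lineage, *Sox10*, *Dct*, *Tyrp1*, and *Mlana* were at 0 in all 12 samples and *Mitf* lay between 0.97 and 3.35 RPKM. The 7 summed to at most 5.16 RPKM in any sample. The 4 markers of neural crest and dedifferentiated melanoma (*Ngfr*, *Axl*, *Sox9*, and *Nes*) summed to 910 to 1051 RPKM in scramble and 964 to 1225 in *ptgs1*-KO samples. Their sums were 737 to 854 in *ptgs2*-KO and 687 to 939 in *ptges*-KO samples, and *Ngfr* was under the limit of 1 RPKM. Within a line, the deviation of a sample from the line mean followed transcript length with Spearman's rho across genes of -0.54 to 0.62. Members also differed between samples of a line. Of the 29 tested, 7, 19, and 16 were above the line mean in scramble replicates 1 to 3, 26, 22, and 1 in *ptgs1*-KO, 23, 23, and 3 in *ptgs2*-KO, and 24, 5, and 3 in *ptges*-KO replicates.

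The cells expressed a compact set of integrins, and the same chains led in every line. *Itga3*, a laminin-binding alpha chain, had the highest mean, from 702 RPKM in *ptges*-KO to 897 RPKM in scramble cells. *Itgb1*, the beta chain with the most partners, followed with means of 666 to 719 RPKM. Among alpha chains *Itgav*, *Itga6*, *Itga7*, and *Itga5* came next in scramble cells, at 266 ± 24.7, 249 ± 19.1, 198 ± 2.59, and 132 ± 7.72 RPKM (SD, n = 3). The step from *Itgav* to *Itga6* was within their spread. *Itga4*, *Itga10*, and *Itga1* were far below these, at 3.92 ± 0.286, 2.36 ± 0.491, and 1.96 ± 0.159 RPKM.

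The beta chains *Itgb1*, *Itgb7*, and *Itgb5* carried nearly all beta-chain mRNA. Beside *Itgb1*, *Itgb7* was at 213 ± 3.11 and *Itgb5* at 197 ± 1.46 RPKM in scramble cells. *Itgb8* and *Itgb4* had scramble means of 0.59 and 0.65 RPKM, and *Itgb3* and *Itgb6*, which also pair with alpha V, were below 0.2 RPKM in every sample. The leukocyte chains *Itgal*, *Itgam*, *Itgax*, and *Itgad* did not exceed 0.05 RPKM, and *Itgb2l* was at 0 throughout. In all, 17 members stayed under the limit, with a highest single value of 1.36 RPKM (*Itgb4* in *ptgs1*-KO cells), and 8 of them never reached 0.1 RPKM.

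**Figure D1:**
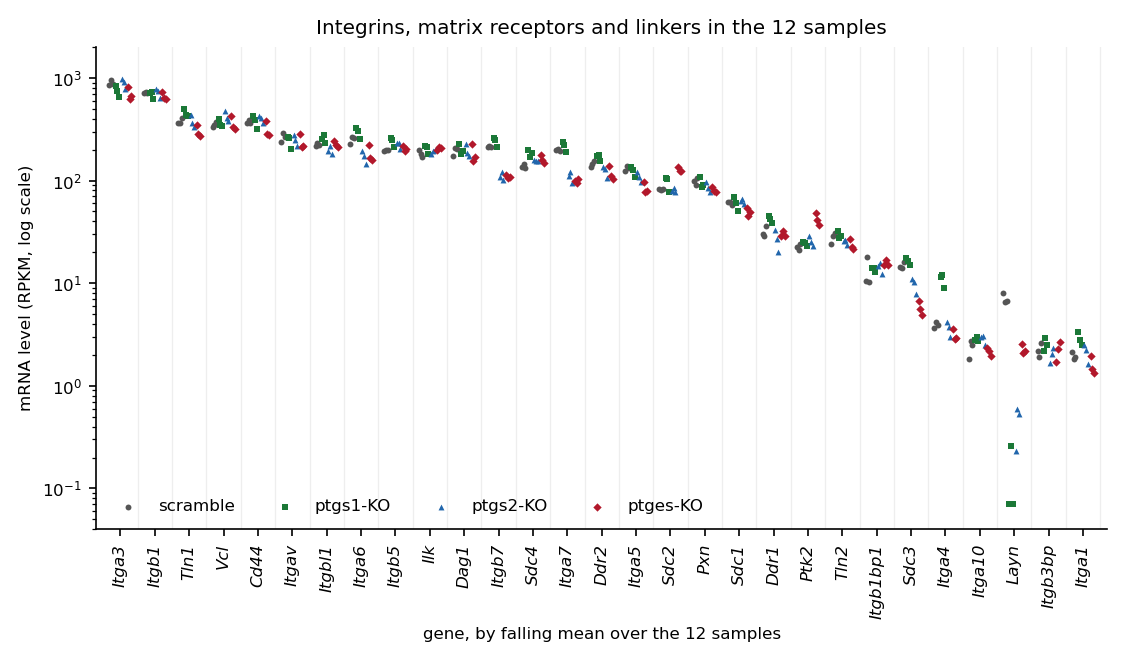
RPKM of the 29 tested members in each of the 12 samples, on a log axis, with genes ordered by their mean and lines shown by color and shape. The lines lie close together for most genes, and *Layn*, *Itga4*, *Sdc3*, *Ptk2*, *Itga7*, and *Itgb7* are the genes in which lines part visibly.

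Pairs that can form were unequal in mRNA. *Itgb7* pairs with *Itga4* or *Itgae*, and their sum was small beside it. The ratio of *Itgb7* to that sum was 52.7 ± 3.15 in scramble, 22.3 ± 1.53 in *ptgs1*-KO, 29.6 ± 4.03 in *ptgs2*-KO, and 33.6 ± 3.39 in *ptges*-KO cells (SD, n = 3), and no knockout sample reached the lowest scramble ratio of 50.7. *Itgb1* was lower than the sum of its 12 alpha partners in every sample, with ratios of 0.41 ± 0.0156, 0.419 ± 0.022, 0.471 ± 0.00952, and 0.51 ± 0.029 in the same order. Scramble and *ptgs1*-KO samples overlapped in that ratio and lay below all *ptgs2*-KO and *ptges*-KO samples. *Itgav* and its beta partners other than *Itgb1*, nearly all of it *Itgb5*, were close to equal, with mean ratios of 1.00 to 1.35. These ratios compare RPKM, a level per transcript length, and are given without a test.

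**Figure D2:**
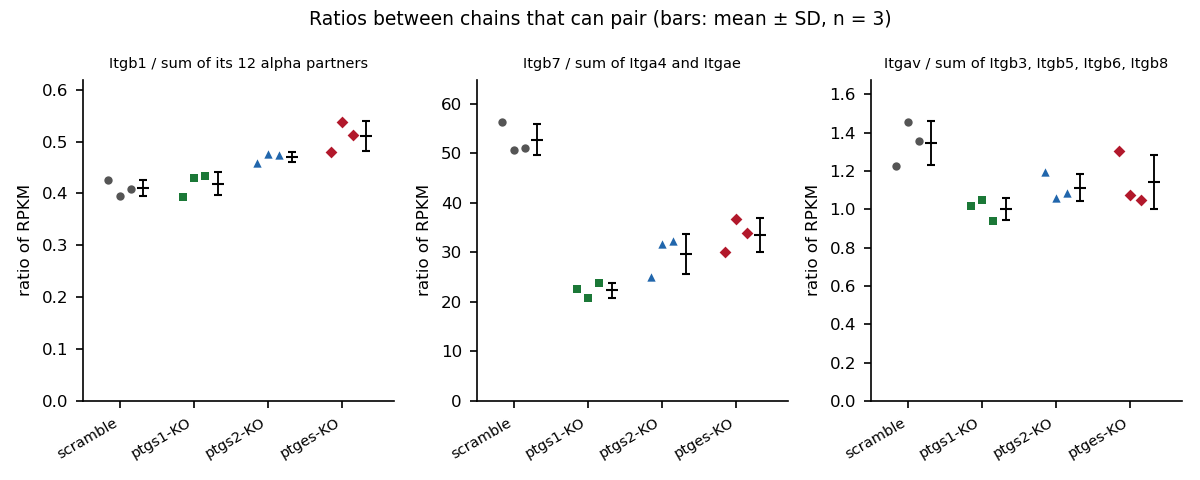
Ratio of RPKM between integrin chains that can pair, in each sample, with the mean ± SD of 3 samples beside the points, for *Itgb1* over its 12 alpha partners, *Itgb7* over *Itga4* and *Itgae*, and *Itgav* over *Itgb3*, *Itgb5*, *Itgb6*, and *Itgb8*. The *Itgb7* ratio lies above 50 in the scramble samples and between 20.7 and 36.7 in the knockout samples.

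Of the 29 members few changed in *ptgs1*-KO cells, some in *ptgs2*-KO, and more in *ptges*-KO cells, with falls in the majority in the last 2 lines. Tests were made by limma on log2(RPKM + 1), with Benjamini-Hochberg adjustment over all 11282 genes tested and a limit of 0.05, and the 3 comparisons share the scramble samples. In *ptgs1*-KO cells 3 of 29 members changed, against 9.26% of all genes. *Itga4* and *Sdc4* were higher and *Layn* lower, where 4.65% of all genes were higher and 4.61% lower. In *ptgs2*-KO cells 5 members changed, against 11.1% of all genes, of which 5.97% were higher and 5.17% lower. All 5 were lower, namely *Layn*, *Itgb7*, *Itga7*, *Sdc3*, and *Itga6*. None was higher there by limma, at an unadjusted p under 0.05 (0 of 29), or by the Tukey test (0 of 29). With length and GC trends removed 2 were higher and 8 lower, and without scramble replicate 2 there was 1 higher and 4 lower. In *ptges*-KO cells 9 members changed, against 26.3% of all genes, of which 11.9% were higher and 14.4% lower. *Ptk2* and *Sdc2* were higher, and *Layn*, *Sdc3*, *Itga7*, *Itgb7*, *Itga5*, *Itga6*, and *Itga3* were lower.

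The members called were 10.3%, 17.2%, and 31% of those tested, shares near the background of each comparison. Their median log2 fold change was 0.12 in *ptgs1*-KO, -0.02 in *ptgs2*-KO, and -0.20 in *ptges*-KO cells, beside 0.01, 0.01, and -0.03 over all genes. Without *ptgs1*-KO replicate 3 or *ptgs2*-KO replicate 3 the count in *ptgs1*-KO cells was 5, with 1008 and 976 of all genes called. Without scramble replicate 3 or *ptgs2*-KO replicate 3 the count in *ptgs2*-KO cells was 3, with 829 and 802 of all genes called. Whatever the p, 22, 12, and 8 of the 29 members were above scramble, against 51.3%, 51.7%, and 45.8% of all genes. The values of the 2 groups did not overlap in 10, 9, and 14 members, against 26.9%, 35.1%, and 43.3% of all genes. Over the 4 lines together 15 of 29 members differed by limma's F test, against 38.6% of all genes.

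**Figure D3:**
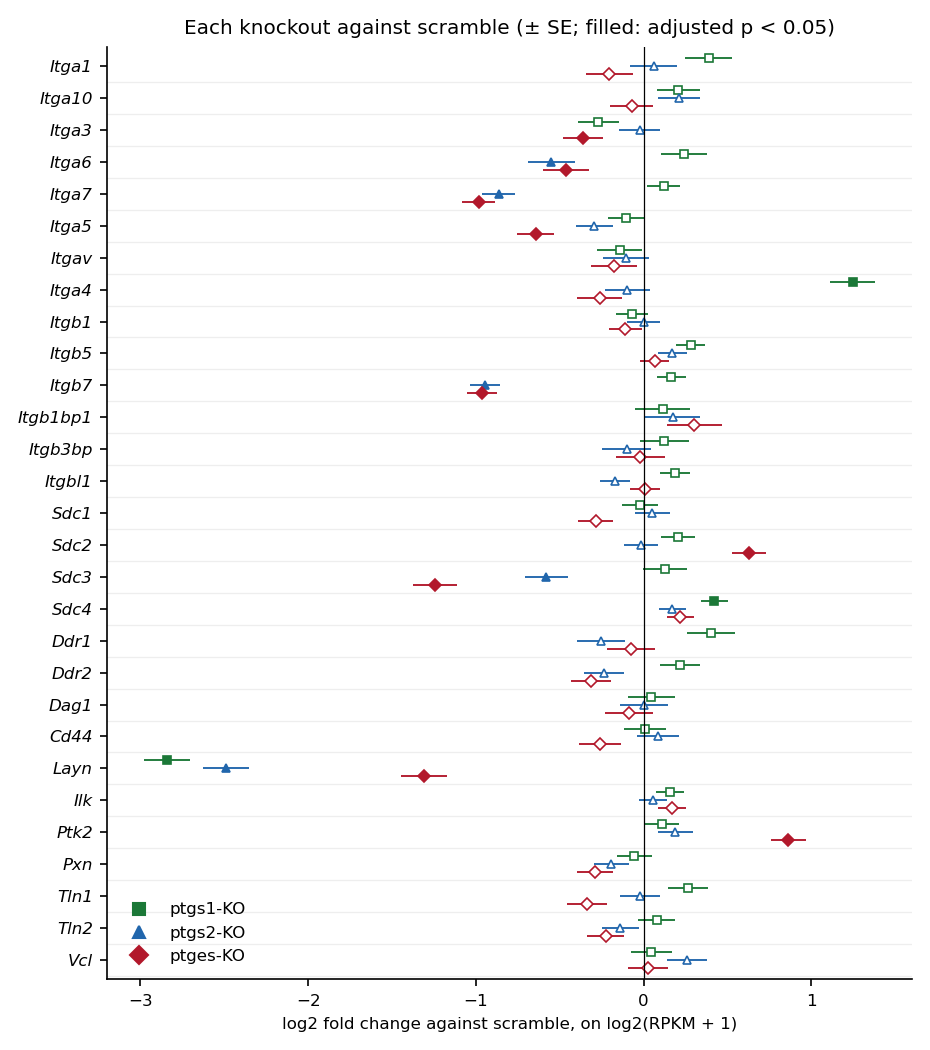
Log2 fold change of each tested member in the 3 knockouts against scramble, on the log2(RPKM + 1) scale, with the standard error as a bar and filled symbols for an adjusted p under 0.05 by limma. *Layn* is to the left in all 3 knockouts, *Itga7*, *Itgb7*, and *Sdc3* in *ptgs2*-KO and *ptges*-KO, *Itga4* to the right in *ptgs1*-KO, and *Ptk2* and *Sdc2* to the right in *ptges*-KO.

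*Layn* codes for layilin, a C-type lectin-like hyaluronan receptor that binds talin, and lies at chr9:51054640-51077094 on the minus strand. It was at 8.09, 6.52, and 6.75 RPKM in scramble samples, at 0.07, 0.26, and 0.07 in *ptgs1*-KO, at 0.23, 0.59, and 0.53 in *ptgs2*-KO, and at 2.53, 2.09, and 2.18 in *ptges*-KO samples. No knockout sample overlapped scramble, and the 2 COX knockouts lay below every *ptges*-KO sample. Means were 1.87%, 6.32%, and 31.8% of scramble. The log2 fold changes were -2.84 ± 0.14, -2.49 ± 0.14, and -1.31 ± 0.14 (SE), with adjusted p of 2.70e-08, 8.68e-08, and 2.38e-05. Because 1 is added before the logarithm, these understate the ratios of so low a gene. At the estimated depth, the *ptgs1*-KO values stand for about 1.8 to 6.5 reads per sample and the scramble values for about 180.1 to 232, so the *ptgs1*-KO level is known only roughly. *Layn* was also the only member called in all 3 knockouts against scramble. These 3 calls share the scramble samples, in which it was highest. It passed the filter at a mean of 2.49 RPKM over the 12 samples. Its means of 0.133 RPKM in *ptgs1*-KO and 0.45 RPKM in *ptgs2*-KO cells were under 1 RPKM.

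The other hyaluronan receptor did not follow. *Cd44*, at chr2:102811141-102901665, was at 366, 391, and 366 RPKM in scramble, 425, 391, and 321 in *ptgs1*-KO, 423, 411, and 363 in *ptgs2*-KO, and 379.95, 286, and 281 in *ptges*-KO samples. In *ptges*-KO cells replicates 2 and 3 were below all scramble samples and replicate 1 was between them. The difference of -0.26 ± 0.13 had an adjusted p of 0.146. Without *ptges*-KO replicate 1 the adjusted p was 0.0202.

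Of 3 laminin-binding alpha chains, *Itga7* and *Itga6* were lower in *ptgs2*-KO, and *Itga3* as well in *ptges*-KO cells. *Itga7*, the alpha chain of the muscle-type laminin receptor (chr10:128933818-128958282), was at 197, 201, and 196 RPKM in scramble, 237, 221, and 189.9 in *ptgs1*-KO, 111, 121, and 94.6 in *ptgs2*-KO, and 99.6, 95.1, and 104 in *ptges*-KO samples. All samples of the last 2 lines lay below all of the first 2. It fell to 55.0% of scramble in *ptgs2*-KO (log2 fold change -0.86 ± 0.10, adjusted p = 9.68e-05) and to 50.4% in *ptges*-KO cells (-0.98 ± 0.10, adjusted p = 1.54e-05).

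*Itga6*, which forms laminin receptors with *Itgb1* or *Itgb4* (chr2:71745616-71858416), was at 228, 263, and 257 RPKM in scramble, 326, 304, and 257 in *ptgs1*-KO, 195, 172, and 146 in *ptgs2*-KO, and 222, 165, and 159 in *ptges*-KO samples. The lowest scramble sample and the highest *ptges*-KO sample were nearly level. It fell by 0.55 ± 0.14 in *ptgs2*-KO (adjusted p = 0.0218) and by 0.46 ± 0.14 in *ptges*-KO cells (adjusted p = 0.0255) on the log2 scale. Each call was lost without scramble replicate 2 or 3, at adjusted p of 0.0839 and 0.0715 in *ptgs2*-KO and 0.0842 and 0.0788 in *ptges*-KO cells. It was also lost without replicate 2 or 3 of the knockout line, at 0.0532 and 0.0916 in *ptgs2*-KO and 0.0971 and 0.101 in *ptges*-KO cells. The Tukey test lost both calls (adjusted p = 0.333 and 0.312), as did limma with no filter (0.0510 and 0.0568).

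*Itga3* (chr11:95044474-95076801) was at 858, 954, and 879 RPKM in scramble, 834, 749.8, and 656 in *ptgs1*-KO, 965, 906, and 782 in *ptgs2*-KO, and 814, 627, and 665 in *ptges*-KO samples. All *ptges*-KO samples were below scramble, the first of them narrowly. The fall of 0.36 ± 0.12 in *ptges*-KO cells (log2 scale, adjusted p = 0.0419) was held in 13 of 24 settings of the analysis, the main one included, and was lost without any 1 of the scramble samples, at adjusted p of 0.0693, 0.134, and 0.0877. It was lost as well without *ptges*-KO replicate 2 or 3 (0.167 and 0.123) and without replicate 2 of *ptgs1*-KO or *ptgs2*-KO, which enter only the shared spread (0.0539 and 0.0538). With length and GC trends removed the difference was -0.17 (adjusted p = 0.0730, and 0.0661 with the replicate block). The Tukey test lost the call too (adjusted p = 0.316), as did limma with no filter (0.0815).

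Of the RGD-binding chains, the fibronectin receptor chain fell and alpha V did not pass the test. *Itga5* (chr15:103344286-103366763) was at 125, 140.0, and 131 RPKM in scramble, 136, 126, and 108 in *ptgs1*-KO, 119.8, 108, and 95.7 in *ptgs2*-KO, and 96.0, 77.6, and 79.6 in *ptges*-KO samples. All *ptges*-KO samples were below all scramble and *ptgs1*-KO samples. It fell to 64.0% of scramble in *ptges*-KO cells (log2 fold change -0.64 ± 0.11, adjusted p = 0.00109), a call held in all 24 settings, and was at 81.7% in *ptgs2*-KO cells (adjusted p = 0.107). *Itgav* (chr2:83724397-83806916) was at 240.0, 289, and 268 RPKM in scramble, 264, 259, and 202 in *ptgs1*-KO, 276, 249, and 218 in *ptgs2*-KO, and 284, 211, and 215 in *ptges*-KO samples. Every knockout overlapped scramble, with adjusted p from 0.381 to 0.672.

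*Itga4* and *Itgb7* code for the 2 chains of the receptor by which lymphocytes home to the gut, and alpha 4 also pairs with beta 1. *Itga4* (chr2:79255426-79333123) was at 3.62, 4.19, and 3.95 RPKM in scramble, 11.5, 11.9, and 8.91 in *ptgs1*-KO, 4.14, 3.74, and 2.97 in *ptgs2*-KO, and 3.58, 2.83, and 2.93 in *ptges*-KO samples. Only the *ptgs1*-KO samples stood above the rest. The mean was 2.74-fold that of scramble (log2 fold change 1.25 ± 0.13, adjusted p = 4.78e-05). *Itga4* shares 127 of 9767 exonic bases with *Cerkl* on the other strand.

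*Itgb7* (chr15:102215995-102231944, minus strand) was at 213, 217, and 211 RPKM in scramble, 259.9, 248, and 212 in *ptgs1*-KO, 108, 122, and 101 in *ptgs2*-KO, and 112, 107, and 108 in *ptges*-KO samples. As for *Itga7*, the samples of *ptgs2*-KO and *ptges*-KO all lay below the others. It fell to 51.8% of scramble in *ptgs2*-KO (-0.95 ± 0.09, adjusted p = 1.37e-05) and to 51.1% in *ptges*-KO cells (-0.96 ± 0.09, adjusted p = 5.68e-06). The fibroblast markers *Pdgfra* and *Pdgfrb* were lower in the same lines. The sum of the 4 fibroblast markers was 17.0 to 23.5 RPKM in scramble, 22.95 to 34.1 in *ptgs1*-KO, 9.3 to 10.8 in *ptgs2*-KO, and 9.53 to 12.9 in *ptges*-KO samples, and the matrix genes of that list, *Lum* and *Dcn*, were at 0 in all 12 samples. The leukocyte markers, for cells in which *Itgb7* is best known, summed to at most 2.08 RPKM in any sample, with 2 of 5 at 0 throughout, and the epithelial and endothelial markers to at most 1.09 and 0.17 RPKM.

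The main beta chain was level across lines. *Itgb1* (chr8:128685654-128733200) was at 705, 733, and 710.4 RPKM in scramble, 715, 721, and 618 in *ptgs1*-KO, 771, 746, and 639 in *ptgs2*-KO, and 732, 636, and 629.7 in *ptges*-KO samples. Every knockout overlapped scramble, with log2 fold changes of -0.07 to -0.11 in *ptgs1*-KO and *ptges*-KO cells, 0.00 in *ptgs2*-KO cells, and adjusted p of at least 0.451. *Itgb5* was higher in every *ptgs1*-KO and *ptgs2*-KO sample than in scramble, without passing the test (adjusted p = 0.0585 and 0.218).

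Syndecans went different ways. *Sdc3* (chr4:130792537-130826319) was at 14.3, 14.2, and 16.02 RPKM in scramble, 17.5, 16.4, and 14.99 in *ptgs1*-KO, 11.03, 10.2, and 7.81 in *ptgs2*-KO, and 6.69, 5.54, and 4.94 in *ptges*-KO samples. The lines formed 3 levels that did not overlap, with *ptges*-KO lowest. *Sdc3* fell to 65.2% of scramble in *ptgs2*-KO (-0.58 ± 0.13, adjusted p = 0.0118) and to 38.6% in *ptges*-KO cells (-1.24 ± 0.13, adjusted p = 2.23e-05). The *ptgs2*-KO call was lost without *ptgs2*-KO replicate 3 (adjusted p = 0.0509) or scramble replicate 3 (0.0512), and by the Tukey test (0.0813). Of its exonic bases 415 of 4973 overlap *Gm26716* on the other strand.

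*Sdc2* (chr15:32920723-33034935) moved the other way in *ptges*-KO cells. It was at 82.7, 80.8, and 82.2 RPKM in scramble, 106, 103, and 77.7 in *ptgs1*-KO, 79.6, 85.4, and 77.9 in *ptgs2*-KO, and 136, 123, and 123 in *ptges*-KO samples. The *ptges*-KO samples lay above all others, at 1.56-fold the scramble mean (0.63 ± 0.10, adjusted p = 7.22e-04). In *ptgs1*-KO cells, replicates 1 and 2 were above scramble and replicate 3 below it (adjusted p = 0.244, and 0.00924 without replicate 3).

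*Sdc4* (chr2:164424247-164443887), the syndecan of focal adhesions, was at 135, 145, and 133 RPKM in scramble, 197, 171, and 185 in *ptgs1*-KO, 157, 154, and 154 in *ptgs2*-KO, and 177, 157, and 148 in *ptges*-KO samples. Every knockout sample was above every scramble sample, and only *ptgs1*-KO passed the test, at 1.34-fold (0.42 ± 0.08, adjusted p = 0.00487). *Sdc1* (chr12:8771323-8793715) was at 61.4, 61.7, and 57.9 RPKM in scramble, 68.9, 60.7, and 50.2 in *ptgs1*-KO, 63.4, 65.8, and 58.6 in *ptgs2*-KO, and 54.1, 45.2, and 48.9 in *ptges*-KO samples. It was lowest in *ptges*-KO cells, without overlap with scramble, and did not pass the test there (adjusted p = 0.0626). It passed in 9 of 24 settings.

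**Figure D4:**
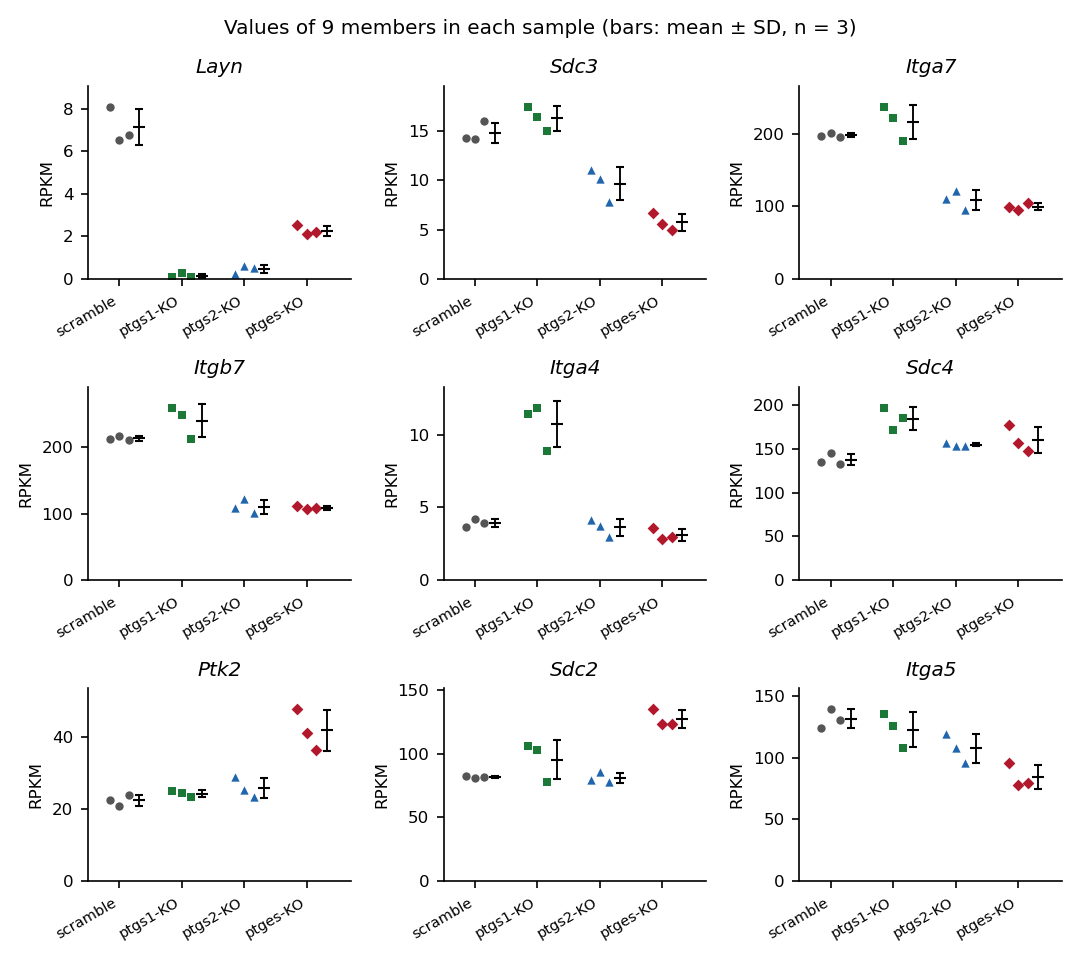
RPKM of *Layn*, *Sdc3*, *Itga7*, *Itgb7*, *Itga4*, *Sdc4*, *Ptk2*, *Sdc2*, and *Itga5* in each sample, each axis from 0, with the mean ± SD of 3 samples beside the points. *Itga7* and *Itgb7* lie between 189.9 and 259.9 RPKM in scramble and *ptgs1*-KO samples and between 94.6 and 122 RPKM in the samples of *ptgs2*-KO and *ptges*-KO.

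The collagen receptors *Ddr1* and *Ddr2* and dystroglycan did not pass the test in any knockout against scramble. *Ddr1* means were 31.8 RPKM in scramble cells and 42.2, 26.8, and 29.97 RPKM in the knockouts of *ptgs1*, *ptgs2*, and *ptges*. In the same order, *Ddr2* means were 145, 169, 124, and 117 RPKM, and *Dag1* means 194, 201, 196, and 184 RPKM. *Ddr1* was above scramble in every *ptgs1*-KO sample (adjusted p = 0.106). The collagen-binding chains *Itga1* and *Itga10* also did not pass it, with adjusted p of at least 0.112.

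Among linkers and kinases *Ptk2* alone changed against scramble. *Ptk2*, which codes for focal adhesion kinase (chr15:73205102-73423280), was at 22.6, 20.8, and 23.9 RPKM in scramble, 25.1, 24.4, and 23.2 in *ptgs1*-KO, 28.8, 25.4, and 23.2 in *ptgs2*-KO, and 47.9, 41.1, and 36.5 in *ptges*-KO samples. The *ptges*-KO samples stood above all others, at 1.86-fold the scramble mean (0.86 ± 0.11, adjusted p = 9.16e-05). This call held in all 24 settings. *Ilk* (chr7:105736592-105742925) was at 198, 183, and 169 RPKM in scramble, 218, 214, and 182 in *ptgs1*-KO, 183, 192, and 197 in *ptgs2*-KO, and 197, 214, and 206 in *ptges*-KO samples, and each knockout overlapped scramble. Its adjusted p was 0.164 in *ptges*-KO cells, and 1533 of its 1877 exonic bases overlap *Taf10* on the other strand, so its values depend on how strand was counted.

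*Tln1*, the talin of most cells, had means of 378 RPKM in scramble cells, 455 in *ptgs1*-KO, 374 in *ptgs2*-KO, and 300.2 in *ptges*-KO cells. The *ptgs1*-KO samples were all above and the *ptges*-KO samples all below scramble, with adjusted p of 0.197 and 0.0528. *Pxn* was below scramble in every *ptges*-KO sample (adjusted p = 0.0595), and *Vcl*, with 2090 of 5267 exonic bases shared with *Ap3m1* on the other strand, was above it in every *ptgs2*-KO sample (adjusted p = 0.187). *Tln2* had adjusted p of at least 0.15.

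*ptges*-KO differed from *ptgs2*-KO cells in 6 of 29 members, against 16.6% of all genes, with 3 higher in *ptges*-KO (6.76% of all genes) and 3 lower (9.84%). The groups did not overlap in 7 members, against 34% of all genes. *Layn* was 5.04-fold higher in *ptges*-KO cells (1.18 ± 0.14, adjusted p = 6.36e-05), *Ptk2* 1.62-fold (0.67 ± 0.11, adjusted p = 7.31e-04), and *Sdc2* 1.57-fold (0.65 ± 0.10, adjusted p = 7.24e-04). *Sdc3* was lower, at 59.2% (-0.66 ± 0.13, adjusted p = 0.00363), as were *Itga5*, at 78.3% (-0.35 ± 0.11, adjusted p = 0.0465), and *Sdc1*, at 78.9% (-0.34 ± 0.11, adjusted p = 0.0447). The last 2 calls were held in 12 and 13 of 24 settings. *Itga5* lost it without any 1 of the scramble samples, *ptgs1*-KO replicate 2, *ptgs2*-KO replicate 1 or 2, or *ptges*-KO replicate 2 or 3 (adjusted p = 0.0579 to 0.176), and *Sdc1* lost it without any of the same samples (0.0580 to 0.176). *Itga7* and *Itgb7*, low in both lines, differed between them by -0.12 ± 0.10 and -0.02 ± 0.09 (adjusted p = 0.448 and 0.917). The count of 6 became 10 without *ptges*-KO replicate 1, and 4 without each of the samples just named. Of all genes 2236 were called without *ptges*-KO replicate 1, and 1104 to 1779 without those samples.

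Against *ptgs1*-KO cells more members differed. In *ptgs2*-KO cells 9 differed, against 23.6% of all genes. All 9 were lower, against 11.6% of all genes lower and 12.1% higher, and 0 were higher by limma, with 1 higher at an unadjusted p under 0.05 and 0 by the Tukey test. There was 1 higher with a pseudocount of 0.1, with no filter, with eBayes without trend, and without *ptgs2*-KO replicate 1, and there were 3 with length and GC trends removed (2 with the replicate block). The count of 9 was 6 without *ptgs2*-KO replicate 3, with 2015 of all genes called. In *ptges*-KO cells 13 differed, against 30.2% of all genes, with 10 lower and 3 higher (17% and 13.2% of all genes). The groups did not overlap in 11 members for *ptgs2*-KO and 17 for *ptges*-KO, against 35.2% and 40.3% of all genes. *Itga4* was at 33.7% of its *ptgs1*-KO mean in *ptgs2*-KO and at 29.0% in *ptges*-KO cells, and *Itgb7* at 46.1% and 45.4%. *Ddr1* and *Ddr2*, which did not pass the test against scramble, did so here, at 63.5% and 73.4% in *ptgs2*-KO and 71.0% and 69.6% in *ptges*-KO cells. *Tln1*, at 66.0%, and *Itga1*, at 54.8%, were lower in *ptges*-KO cells, and *Itgbl1*, a secreted integrin-like protein, was at 78.0% in *ptgs2*-KO cells.

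Genes that work with the members were listed by role. Their counts stand beside 4.65% of all genes higher and 4.61% lower in *ptgs1*-KO, 5.97% and 5.17% in *ptgs2*-KO, and 11.9% and 14.4% in *ptges*-KO cells, and their median log2 fold changes beside 0.01, 0.01, and -0.03 over all genes. Of 36 tested proteins of the adhesion complex, 3 were higher and 2 lower in *ptgs1*-KO, 2 and 3 in *ptgs2*-KO, and 5 and 5 in *ptges*-KO cells, with medians of 0.11, 0.11, and -0.01. *Ptk2b*, the other kinase of the focal adhesion kinase family, was at 11.95, 9.79, and 10.2 RPKM in scramble and 2.59, 2.71, and 1.86 in *ptges*-KO samples (-1.79 ± 0.19, adjusted p = 2.76e-05). It thus fell in the line in which *Ptk2* rose. *Kank1*, which binds talin, fell by 1.04 ± 0.11 on the log2 scale in *ptges*-KO cells (adjusted p = 2.75e-05). It was lower in *ptgs1*-KO (-0.41 ± 0.11, limma adjusted p = 0.0362) and *ptgs2*-KO cells (-0.54 ± 0.11, limma adjusted p = 0.00789) as well. The Src-family kinase *Fyn* rose by 0.47 ± 0.16 in *ptges*-KO cells (adjusted p = 0.0394). Of 11 membrane partners of integrins, 0 were higher and 2 lower in *ptgs1*-KO, 0 and 1 in *ptgs2*-KO, and 1 and 0 in *ptges*-KO cells, the last being *Bsg*, or basigin (0.33 ± 0.11, adjusted p = 0.0331). Their medians were -0.09, -0.18, and 0.01.

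Of 16 tested integrin ligands other than collagens and laminins, 5 were higher and 3 lower in *ptgs1*-KO, 3 and 4 in *ptgs2*-KO, and 1 and 6 in *ptges*-KO cells, beside the same shares of all genes (9.26%, 11.1%, and 26.3% in either direction). Their medians were 0.10, -0.16, and -0.21. *Fn1*, or fibronectin, the ligand of the *Itga5* receptor, was at 41.0, 45.5, and 45.1 RPKM in scramble, 104, 100.5, and 92.3 in *ptgs1*-KO, 43.0, 34.1, and 31.6 in *ptgs2*-KO, and 18.8, 15.1, and 14.6 in *ptges*-KO samples. It rose in *ptgs1*-KO (1.16 ± 0.12, adjusted p = 2.60e-05) and fell in *ptges*-KO cells (-1.39 ± 0.12, adjusted p = 2.93e-06). *Npnt*, or nephronectin, was at 3.24 RPKM on average in scramble and 0.483 in *ptges*-KO cells (-1.51 ± 0.17, adjusted p = 4.23e-05). It was lower in *ptgs1*-KO as well, at 0.88 RPKM (adjusted p = 6.45e-04), and higher in *ptgs2*-KO cells, at 8.63 RPKM (adjusted p = 8.85e-04). *Fbn1*, or fibrillin 1, rose from 18.1 to 43.6 RPKM in *ptges*-KO (1.21 ± 0.14, adjusted p = 3.77e-05) and to 40.7 RPKM in *ptgs2*-KO cells (adjusted p = 1.74e-04). *Vcam1*, a ligand of alpha 4 integrins named after its values were seen, fell from a mean of 195 RPKM in scramble to 96.1 in *ptgs2*-KO (adjusted p = 1.87e-05) and 92.3 in *ptges*-KO cells (adjusted p = 5.72e-06).

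Of 7 genes that make or break down hyaluronan, the substance *Layn* and *Cd44* bind, 4 were tested, all on the side of breakdown. The synthases *Has1*, *Has2*, and *Has3* were under the limit of 1 RPKM. Of the 4, 1 was higher and 0 lower in *ptgs1*-KO, 0 changed in *ptgs2*-KO, and 2, both lower, changed in *ptges*-KO cells, against 9.26%, 11.1%, and 26.3% of all genes. The medians of the 4 were -0.07, -0.13, and -0.40. The pair that changed in *ptges*-KO cells were *9930013L23Rik*, the gene also named *Cemip*, which degrades hyaluronan (-1.02 ± 0.12, adjusted p = 6.75e-05), and *Hyal2*, a hyaluronidase (-0.57 ± 0.11, adjusted p = 0.00193). *9930013L23Rik* was also the gene that was higher in *ptgs1*-KO cells (0.98 ± 0.12, limma adjusted p = 1.67e-04). Of 6 tested heparan sulfate co-receptors and syndecan partners or sheddases, 1 was higher and 2 lower in *ptgs1*-KO, 0 and 1 in *ptgs2*-KO, and 1 and 1 in *ptges*-KO cells, with medians of -0.09, 0.01, and -0.19. In *ptges*-KO cells, the glypican *Gpc4* was at 8.84, 6.83, and 5.42 RPKM beside 18.3, 18.7, and 18.3 in scramble (-1.30 ± 0.13, adjusted p = 1.97e-05), and *Sdcbp*, or syntenin, which binds the tails of syndecans, was higher (0.25 ± 0.08, adjusted p = 0.0378). *Gpc4* was higher than scramble in *ptgs1*-KO cells (0.83 ± 0.13, limma adjusted p = 0.00137).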

How the data were processed

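RNA of 12 samples was sequenced as 101 bp paired-end reads on an Illumina HiSeq, and the labels name both a TruSeq and a directional NEXTflex kit. The authors deposited 1 table of RPKM per gene to 2 decimals, called normalized counts in the study's methods. The submitters' processing notes name mm10, and the aligner and counter are not given in the sources used here. Samples were grouped by their labels, and no measured column was left out. Values were tested in R 4.3.3 with limma 3.58.1 on log2(RPKM + 1) for the 11282 genes whose mean reached 1 RPKM, in lmFit and eBayes with a trend, with all 12 samples in the model and Benjamini-Hochberg adjustment over all genes tested. The Tukey test named by the study was kept as an alternative, on untransformed RPKM. Its p-values, already corrected over the pairs of lines, were adjusted again by Benjamini-Hochberg over all genes tested. The study describes no such second adjustment, so this setting is stricter than the test it names. The steps were tested on simulated data. In the simulation for limma the noise was independent between genes, so it left out the deviations that genes share within a line.

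The members and lists were chosen with earlier results of these data known. Values per sample are given for members with an adjusted p under 0.05 in a knockout against scramble or in *ptges*-KO against *ptgs2*-KO, and for *Itgb1*, *Itgav*, *Itga5*, *Cd44*, *Ilk*, and *Ptk2*. Of each list of other genes, at most the 3 with the largest called change in *ptges*-KO cells are named, and *Vcam1* was named besides, after its values were seen. Positions and overlaps are from GENCODE M21 on GRCm38, and promoters from RefSeq. Python 3.11.15 and matplotlib 3.10.9 drew the figures. Other settings were a pseudocount of 0.1, no filter or a filter at 10 RPKM, median ratio scaling, quantile normalization, eBayes without trend, the samples of the 2 lines alone, the replicate block, a log2 fold change of at least 0.5, and each sample left out. Removal of length and GC trends by loess with a span of 0.3 was chosen after seeing the data.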

Additional observations from a re-analysis of the deposited data

Results flagged for a closer look

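The knockout lines differed from one another in several members, by limma on all 12 samples with log2 fold changes (± SE) and adjusted p over all genes tested, and these differences are given as values. The comparisons share samples and are not independent of each other.

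*ptges*-KO differed from *ptgs2*-KO cells by 1.18 ± 0.14 for *Layn*, 0.67 ± 0.11 for *Ptk2*, 0.65 ± 0.10 for *Sdc2*, -0.66 ± 0.13 for *Sdc3*, -0.35 ± 0.11 for *Itga5*, and -0.34 ± 0.11 for *Sdc1*. The groups did not overlap in *Layn*, *Ptk2*, *Sdc2*, *Sdc3*, and *Sdc1*, and they did in *Itga5*. These members were picked by the test on the same values, and 34% of all genes did not overlap.

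Between *ptgs2*-KO and *ptgs1*-KO cells the difference was -1.35 ± 0.13 for *Itga4*, -1.11 ± 0.09 for *Itgb7*, -0.98 ± 0.10 for *Itga7*, -0.79 ± 0.14 for *Itga6*, and -0.71 ± 0.13 for *Sdc3*. It was -0.66 ± 0.14 for *Ddr1*, -0.45 ± 0.12 for *Ddr2*, -0.36 ± 0.09 for *Itgbl1*, and -0.25 ± 0.08 for *Sdc4*. Adjusted p ranged from 1.10e-06 (*Itgb7*) to 0.0389 (*Sdc4*). The groups did not overlap in any of these 9 members, picked by the test on the same values, nor in 35.2% of all genes.

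Between *ptges*-KO and *ptgs1*-KO cells the rises were 1.53 ± 0.14 for *Layn*, 0.76 ± 0.11 for *Ptk2*, and 0.42 ± 0.10 for *Sdc2*. The falls were -1.51 ± 0.13 for *Itga4*, -1.37 ± 0.13 for *Sdc3*, -1.13 ± 0.09 for *Itgb7*, -1.10 ± 0.10 for *Itga7*, -0.71 ± 0.14 for *Itga6*, -0.60 ± 0.12 for *Tln1*, -0.59 ± 0.14 for *Itga1*, -0.54 ± 0.11 for *Itga5*, -0.53 ± 0.12 for *Ddr2*, and -0.48 ± 0.14 for *Ddr1*. Adjusted p ranged from 6.32e-07 (*Itgb7*) to 0.0231 (*Ddr1*). The groups did not overlap in any of these 13 members, nor in 40.3% of all genes. The 13 were picked by the test on the same values, so this adds no separate evidence.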

How the results depend on the processing

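Of 23 calls of named members, 14 held in every setting in which they were tested, of 24 with the main one. Of 1464 values of named members under the settings, 1374 kept their side of the limit, 52 calls were lost and 38 were gained, and no called value changed sign, whereas values that were never called changed sign 38 times. The Tukey test gave 3 members in *ptgs2*-KO against scramble, 2 in *ptges*-KO against *ptgs2*-KO, 5 in *ptgs2*-KO against *ptgs1*-KO, and 7 in *ptges*-KO against *ptgs1*-KO. Against scramble it lost *Sdc4* in *ptgs1*-KO (adjusted p = 0.0700), *Sdc3* and *Itga6* in *ptgs2*-KO (0.0813 and 0.333), and *Itga6* and *Itga3* in *ptges*-KO cells (0.312 and 0.316). Between *ptges*-KO and *ptgs2*-KO it lost *Layn*, *Sdc3*, *Itga5*, and *Sdc1* (0.0720, 0.169, 0.516, and 0.396). Of all genes it called 361, 420, and 1151 in the 3 knockouts against scramble where limma called 1045, 1257, and 2969, and 639, 1300, and 1590 in the other 3 comparisons where limma called 1873, 2665, and 3409. A filter at 10 RPKM left 1 member in *ptgs1*-KO against scramble, since *Layn* and *Itga4* are not tested there, and 582 of all genes. Median ratio scaling gave 14 in *ptges*-KO against scramble and turned the split of all genes there from 1342 higher and 1627 lower to 2054 and 1715 (1870 and 1606 with quantile normalization), that against *ptgs2*-KO from 763 and 1110 to 1290 and 1208, and that against *ptgs1*-KO from 1494 and 1915 to 2209 and 1907. The median log2 fold change of the members was then -0.18 against scramble, -0.04 against *ptgs2*-KO, and -0.18 against *ptgs1*-KO. Removal of length and GC trends gave 8, 10, and 15 in *ptgs1*-KO against scramble, *ptgs2*-KO against scramble, and *ptgs2*-KO against *ptgs1*-KO, and 9, 10, and 14 with the replicate block, while the calls among all genes rose to 2185, 2576, and 4066 (2096, 2506, and 4040 with the block), and to 2959 and 2906 in *ptges*-KO against *ptgs2*-KO. Quantile normalization gave 1570 of all genes in *ptgs1*-KO and median ratio scaling 1961 in *ptgs2*-KO against scramble. The cause was not tested. With samples left out in turn the counts were 3 to 5 in *ptgs1*-KO, 3 to 5 in *ptgs2*-KO, and 7 to 13 in *ptges*-KO against scramble, 4 to 10 in *ptges*-KO against *ptgs2*-KO, 6 to 10 in *ptgs2*-KO and 12 to 17 in *ptges*-KO against *ptgs1*-KO, and 13 to 19 over the 4 lines. The calls among all genes moved too. In the same order they were 645 to 1163, 722 to 1559, 1936 to 3282, 1104 to 2236, 2004 to 2840, 2298 to 3566, and 3319 to 4605. The labels tie same-numbered samples only by their number. The correlation of their deviations had a mean of 0.0123 over 18 pairs (-0.341 to 0.566). Over 36 other pairs the mean was -0.00456 (-0.475 to 0.321), and 5 of 12 samples were closest to their own number. In the 3 knockouts, 26, 23, and 24 members lay above the line mean in replicate 1, and 1, 3, and 3 in replicate 3. Scramble had 7 and 16. Whether samples of a number shared a batch in some lines was not tested. The replicate block gave 4, 5, 12, 9, 9, 14, and 18 members in the same order of comparisons. Of all genes it called 1105, 1365, 3099, 2011, 2771, 3561, and 4543. Depth limits how well *Layn* is known in *ptgs1*-KO cells.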
